A study of Mus musculus with 18 samples.

Results

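Collagen genes were followed in 3 organs (liver, intestine and lung) of mice with sepsis, kept with or without inhaled hydrogen (H2). All genes whose symbol is Col, a number, the letter a and a number were taken, which gave 44 of the 24346 gene symbols measured. By chain type they were 11 fibrillar genes, 6 type IV genes, 2 multiplexins, 6 type VI genes, 9 fibril-associated genes (FACITs), 3 genes of types VIII and X, 1 type VII gene, 4 transmembrane genes and 2 others. Male C57BL/6 mice, 9 weeks old, had cecal ligation and puncture (CLP), in which bacteria leak from the tied and pierced cecum. The H2 groups breathed 7% hydrogen from the end of surgery onward, together in 1 gas box, so gas and housing cannot be told apart. The control groups had CLP without hydrogen, and sham-operated mice were not analysed here. Poly(A) RNA was sequenced 24 h after CLP in 6 groups of n = 3 libraries, control and H2 for each organ. Levels are given in FPKM, sequenced fragments scaled to transcript length and to library size. A change is the log2 of (FPKM + 1) in H2 minus that in control, with its SE, and group means are given ± SD.

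Collagens are trimeric matrix proteins whose chains wind into a triple helix. Fibrillar collagens of types I, III and V form the cables of connective tissue and come mainly from fibroblasts and stellate cells. Type IV collagen is the sheet-forming network of basement membranes, the thin layers under epithelium and endothelium. Its chains assemble in fixed combinations: Col4a1 and Col4a2 chains build the network found in nearly every basement membrane, Col4a3, Col4a4 and Col4a5 chains build a network known from kidney glomeruli and lung alveoli, and Col4a5 also pairs with Col4a6. The multiplexin Col18a1, whose tail is the source of endostatin, is made by hepatocytes as well as by vessels.

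The type IV genes lie in head-to-head pairs, so each pair shares the DNA between or across its starts. These stretches and the region before the fibrillar gene Col3a1 are shown because these genes take up most of the results. Sequences are from the RefSeq promoter table for build GRCm38.p6 (mm10), and pair distances are from GENCODE vM21 on mm10. Capitals mark matches on either strand to 3 motifs. The TATA box was searched as TATAAA. The CCAAT box was searched as its name reads. The GC box was searched as GGGCGG.
Col4a4 and Col4a3, the 71 bases between the starts, chr1:82586850-82586920, minus strand: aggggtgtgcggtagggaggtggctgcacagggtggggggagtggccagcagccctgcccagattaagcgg
Col4a1 and Col4a2, the 22 bases shared by both starts, chr8:11312805-11312826, plus strand: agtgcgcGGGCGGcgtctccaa
Col4a5, the 216 bases before the start, chrX:141475169-141475384, plus strand: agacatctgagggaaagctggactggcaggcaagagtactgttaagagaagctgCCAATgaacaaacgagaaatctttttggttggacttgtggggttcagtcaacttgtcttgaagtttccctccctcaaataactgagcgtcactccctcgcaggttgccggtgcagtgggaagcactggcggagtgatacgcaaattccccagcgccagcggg
Col3a1, the 250 bases before the start, chr1:45311288-45311537, plus strand: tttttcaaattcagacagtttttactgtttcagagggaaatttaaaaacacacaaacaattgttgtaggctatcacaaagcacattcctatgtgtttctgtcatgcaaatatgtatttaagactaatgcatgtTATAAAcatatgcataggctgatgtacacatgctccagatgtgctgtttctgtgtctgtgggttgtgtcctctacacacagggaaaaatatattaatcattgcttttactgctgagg
G and C made up 69.0% of the Col4a4-Col4a3 stretch, 72.7% of the Col4a1-Col4a2 overlap, 52.3% of the Col4a5 stretch and 35.2% of the Col3a1 stretch. The starts of Col4a6 and Col4a5 lie 1308 bases apart. Of the 44 collagen genes, 35 had an entry in the promoter table. Motifs were counted in the 250 upstream bases of each 300-base window, and those 35 genes had 38 windows. TATAAA was there in 5 of the 35 genes, CCAAT in 13 and GGGCGG in 21. Over the same 250 bases of all 32851 windows, counted per window, TATAAA was in 12.4%, CCAAT in 33.8% and GGGCGG in 32.7%. In the annotation, 563 exon bases of Col4a3 are also covered by the antisense gene C430014B12Rik. Of Col3a1, 141 exon bases are also covered by Gm47302 on the same strand, where strand cannot separate the reads. Whether the authors' counting used strand is not given in the sources used here, so reads of Col4a3 and its antisense neighbour may not be told apart.

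Depth, estimated from the FPKM worth of a single fragment, was lowest in H2 intestine 2 (8.51 M fragments) and highest in H2 lung 2 and 3 (15.5 M each). It was 10.2, 12.9 and 12.3 M in control lungs and 13.5 M in H2 lung 1, so the lung groups did not overlap. FPKM summed over all genes did not overlap between groups in any organ. In the lung it was 824667 to 839264 in control and 709826 to 777145 in H2 libraries. The part of depth and of these sums in the results was not tested. The defining genes of each organ were high in its own libraries: summed hepatocyte markers were at least 36420 FPKM in liver, summed enterocyte markers at least 963.9 FPKM in intestine and summed alveolar markers at least 25850 FPKM in lung. H2 intestine 2 stood apart from the other intestine libraries. Its 44 collagens summed to 51.3 FPKM, against 132 to 200 FPKM in the other 5, and its enterocyte markers to 5627 FPKM, against at most 2058 FPKM in controls. Control liver 2 and control lung 3 lay nearer to the H2 libraries than the other controls did for several members named below. Without control liver 2, 2834 genes of all those tested in the liver passed the test, and without control lung 3 this number was 3295 in the lung, against 2 and 1 with all libraries. The labels do not say whether libraries of different organs came from the same mice, and p-values measure only the spread between these libraries.

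Collagen expression followed the organ first, as the heat map of 26 genes by library shows. A mean of at least 1 FPKM was reached by 11 liver, 15 intestine and 23 lung members, and by 26 in at least 1 organ. The other 18 members stayed below it in every organ, among them the cartilage gene Col2a1, at most 0.0470 FPKM in any library, and the keratinocyte and airway basal cell gene Col17a1, at most 0.585 FPKM. At the edge of the filter, Col6a1 (mean 1.56 FPKM) was in and Col1a1 (0.948 FPKM) out in the liver. In the intestine Col16a1 (1.36 FPKM) was in and Col12a1 (0.960 FPKM) out, and in the lung Col12a1 (1.11 FPKM) was in and Col15a1 (0.944 FPKM) out.

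**Figure D1:**
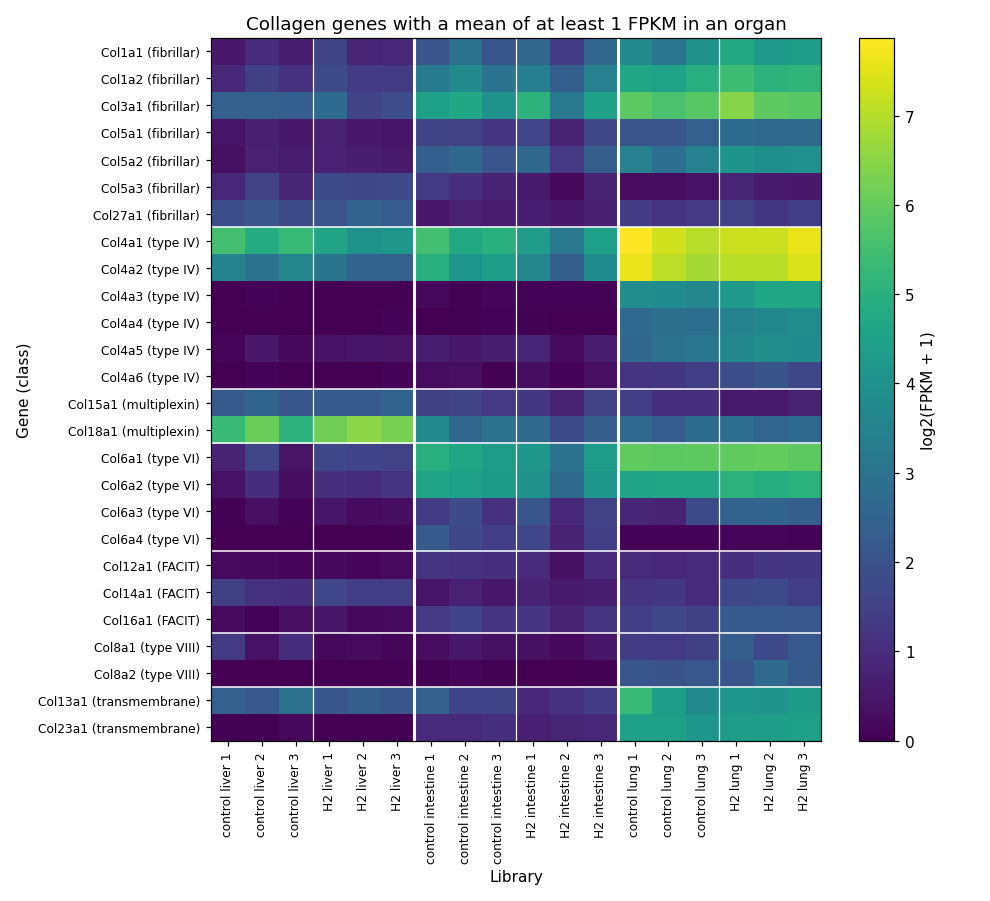
Level of the 26 collagen genes with a mean of at least 1 FPKM in at least 1 organ, in each of the 18 libraries, as log2(FPKM + 1) by colour; rows are grouped by class and columns by organ and treatment. Col4a1 and Col4a2 are brightest in the lung, Col18a1 in the liver, and Col4a3 and Col4a4 are dark outside the lung.

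In control mice, Col18a1 was the most abundant collagen of the liver by mean FPKM, at 38.8, 68.1 and 32.2 FPKM, followed by Col4a1 at 44.7, 28.5 and 38.1 FPKM. These levels overlapped between the genes, so their order is not resolved. Col1a1, the main chain of scar collagen, was at 0.448, 0.998 and 0.577 FPKM in the same livers. In the control intestine Col4a1, Col6a1, Col4a2, Col6a2 and Col3a1 lay between 15.5 and 44.7 FPKM in all 3 libraries. Col4a1 lay above every value of Col6a2 and Col3a1, while its range overlapped those of Col6a1 and Col4a2. In the control lung Col4a1 measured 233, 156 and 130 FPKM, Col4a2 198, 135 and 112 FPKM, and Col6a1 61.3, 58.3 and 59.9 FPKM. Over all genes the control contrasts were themselves shifted on this scale, with a median of -0.64 for liver minus intestine, -1.17 for liver minus lung and -0.45 for intestine minus lung, and scaling by the median of ratios took these shifts to -0.02, -0.01 and 0.03. Of 22 members in the joint fit, 5 were higher and 11 lower in control liver than in control intestine, where 12.6% of all genes were called higher and 60% lower (72.6% in all). In liver against lung 3 were higher and 18 lower, against 9.15% and 76% of all genes (85.1% in all). In intestine against lung 0 were higher and 17 lower, against 17.6% and 51.3% (68.9% in all). The liver contrasts lay nearer to the background than intestine against lung. However, 6 of the 22 members reached a mean of 1 FPKM in the lung alone: Col23a1, Col4a3, Col4a4, Col4a5, Col8a1 and Col8a2. They passed the filter through the lung and were all called lower in both contrasts with it. The lower counts against the lung thus follow in part from the filter. Single genes went further than the shift. Col4a3, among those 6, was lower by a log2 change of -3.74 ± 0.11 in liver than in lung (adjusted p = 1.04e-13). That size is set by the pseudocount because Col4a3 is near 0 in the liver (-6.68 with 0.1 and -1.81 with 5). Col18a1 was higher in liver than in lung by 2.91 ± 0.30 (adjusted p = 1.88e-07).

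Col4a1 and Col4a2, the chains of the common basement membrane network, had lower means with hydrogen in liver and intestine, passing the test in neither, and like means in the lung, as the plots of the 6 type IV genes show. In the liver Col4a1 measured 44.7, 28.5 and 38.1 FPKM in controls and 23.2, 15.1 and 17 FPKM in H2 mice. Every H2 liver was below every control liver for this gene. Its mean went from 37.1 ± 8.13 to 18.4 ± 4.22 FPKM, a change of -0.97 ± 0.22 that did not pass the test (adjusted p = 0.163). Col4a2 measured 10.5, 6.63 and 11.1 FPKM in control livers and 7.18, 4.57 and 4.49 FPKM in H2 livers. Here control liver 2 lay below H2 liver 1, so the groups overlapped, and the change was -0.69 ± 0.23 (adjusted p = 0.187). In bulk tissue, fewer cells of a type and less RNA per cell cannot be told apart.

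In the intestine Col4a1 measured 44.7, 26.6 and 30.6 FPKM in controls and 19, 7.79 and 20.8 FPKM in H2 mice. Col4a2 measured 30.2, 16.4 and 20.2 FPKM in controls and 11.4, 4.27 and 13.2 FPKM in H2 mice. For both genes all H2 libraries were below all controls, and H2 intestine 2 was lowest. The changes were -1.13 ± 0.37 for Col4a1 and -1.21 ± 0.39 for Col4a2, with an adjusted p of 0.353 for each. Without H2 intestine 2 they were -0.71 and -0.76, so that library alone moved both by more than 1.5 times. Its summed enterocyte markers were the highest of the 6 libraries, and their part in the result was not tested.

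In the lung Col4a1 measured 151, 150 and 194 FPKM with hydrogen, which lay within the control range of 130 to 233 FPKM. Its change was -0.03 ± 0.23 and that of Col4a2 -0.02 ± 0.22, so the intervals of 1 SE covered 0, and the sign turned under other settings listed at the end. The ratio of Col4a1 to Col4a2 ran from 3.23 to 4.30 in liver libraries, 1.48 to 1.82 in intestine and 1.15 to 1.18 in lung. These ranges did not overlap between organs, and the ratio varied least in the lung.

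**Figure D2:**
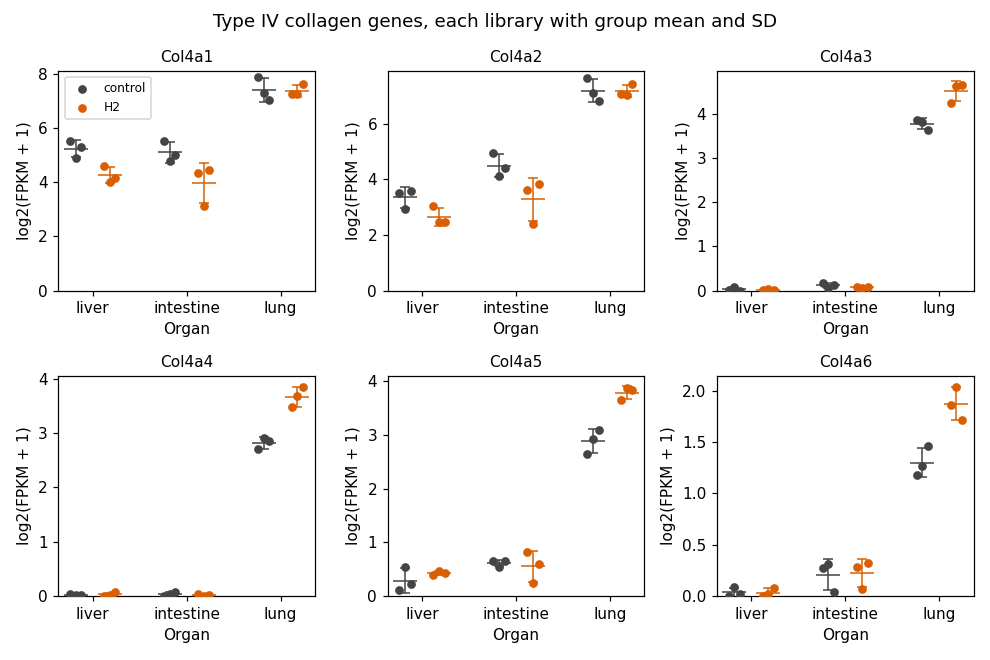
Level of each type IV collagen gene as log2(FPKM + 1) in control (grey) and H2 (orange) libraries by organ; points are single libraries, bars the mean and SD of n = 3. Col4a1 and Col4a2 sit lower with hydrogen in liver and intestine. Col4a3 to Col4a6 sit higher with hydrogen in the lung and stay below 1 FPKM in liver and intestine.

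The lung gave another pattern for the other type IV chains. Col4a3 measured 13.6, 13.1 and 11.4 FPKM in control lungs and 18, 23.5 and 24.3 FPKM in H2 lungs. Col4a4, its head-to-head neighbour, measured 5.51, 6.49 and 6.24 FPKM in controls and 10.2, 11.9 and 13.4 FPKM in H2 lungs. Col4a5 measured 5.24, 6.58 and 7.54 FPKM in controls and 11.6, 13.7 and 13.2 FPKM in H2 lungs. Every H2 lung was above every control lung for these 3 genes, whose chains form 1 network. Col4a6 was lower in level, at 1.26, 1.41 and 1.75 FPKM in controls and 2.63, 3.12 and 2.29 FPKM in H2 lungs, again without overlap. The changes were 0.73 ± 0.14 for Col4a3, 0.85 ± 0.13 for Col4a4, 0.90 ± 0.14 for Col4a5 and 0.57 ± 0.15 for Col4a6, each with an adjusted p of 0.172 in limma on the 6 lung libraries. With the spread estimated over all 18 libraries, 5 of 22 collagens passed in the lung, where 4% of all genes did. These were Col6a3 (adjusted p = 0.0245), Col16a1 (0.0285), Col4a3, Col4a4 and Col4a5. Col6a3 and Col16a1 were low in the liver, at most 0.377 and 0.402 FPKM. In limma on the 6 lung libraries neither passed (adjusted p = 0.172 for both). Col4a3 and Col4a4 were near 0 FPKM in the 12 libraries of the other organs, where log2(FPKM + 1) hardly varies. Col4a5 was below 1 FPKM there but did vary, from 0.184 to 0.755 FPKM in H2 intestines. The calls of these 3 genes in that fit are not used here. Outside the lung these chains were scarcely measured: in liver and intestine Col4a3 was at most 0.129 FPKM, Col4a4 at most 0.0569 FPKM, Col4a6 at most 0.253 FPKM and Col4a5 at most 0.755 FPKM. Alveolar cell markers summed to 25850 to 39870 FPKM in control and 34370 to 37810 FPKM in H2 lungs, with none of the 7 at 0, and their part in the result was not tested. Of these 7 markers 6 were above and 1 below 0, with a median change of 0.13. At an unadjusted p under 0.05 in limma 1 was higher and 0 lower, against 10.5% and 12.5% of all lung genes. Among them Ager, a marker of the flat alveolar cell, had a change of 0.44 ± 0.11 (adjusted p = 0.172), which does not stand for the list.

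Fibrillar collagens were higher in every H2 lung than in every control lung for 4 of 6 tested genes, as the fibrillar plots show, against 14.1% of all lung genes. Col1a1 measured 12.7, 7.46 and 15.1 FPKM in control lungs and 26.3, 17.7 and 20.1 FPKM in H2 lungs. Its partner in type I collagen, Col1a2, measured 24.3, 22 and 29.4 FPKM in controls and 41.8, 33.3 and 34.3 FPKM in H2 lungs. The groups did not overlap for either, and the changes were 0.84 ± 0.26 and 0.52 ± 0.15 (adjusted p = 0.172 for both). Col5a1 and Col5a2, whose type V chains start fibrils, had 0.54 ± 0.13 and 0.74 ± 0.17 (adjusted p = 0.172 for both). Col3a1, the chain of the fine fibrils of soft organs, measured 58.6, 48.3 and 56.3 FPKM in control lungs and 85.5, 59.7 and 57.0 FPKM in H2 lungs, and it was H2 lung 1 that stood high. Its change was 0.29 ± 0.18 (adjusted p = 0.342), and that of Col27a1, a cartilage fibril gene, 0.12 ± 0.13 (adjusted p = 0.602). Fibroblast markers summed to 258.4 to 385.7 FPKM in control and 276.8 to 287.3 FPKM in H2 lungs, none of the 12 at 0, and their part was not tested.

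In the liver 4 fibrillar genes were tested and their values split. Col3a1 measured 4.29, 4.35 and 4.16 FPKM in controls and 5.76, 2.06 and 2.65 FPKM in H2 livers, and H2 liver 1 was above and the other H2 livers below all controls. Col5a3, a minor type V chain, measured 0.824, 1.87 and 0.785 FPKM in controls and 2.36, 2.2 and 2.33 FPKM in H2 livers. Control liver 2 was the control nearest to the H2 livers for Col5a3, whose change was 0.65 ± 0.20 (adjusted p = 0.172). Col27a1 had 0.36 ± 0.14, Col1a2 0.35 ± 0.20 and Col3a1 -0.32 ± 0.28 (adjusted p = 0.225, 0.346 and 0.520). Summed fibroblast and stellate cell markers were 10.1 to 15.1 FPKM in control and 15.4 to 18.7 FPKM in H2 livers, and their part was not tested.

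In the intestine the 5 tested fibrillar genes had changes from -0.27 to -0.12, none below an adjusted p of 0.731. Col3a1 measured 21.4, 25.2 and 15.5 FPKM in controls and 33.3, 8.10 and 21.7 FPKM in H2 mice, so H2 libraries held both the highest and the lowest value. Without H2 intestine 2, the changes of Col1a1, Col1a2, Col3a1, Col5a1 and Col5a2 were above 0, from 0.09 to 0.39.

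**Figure D3:**
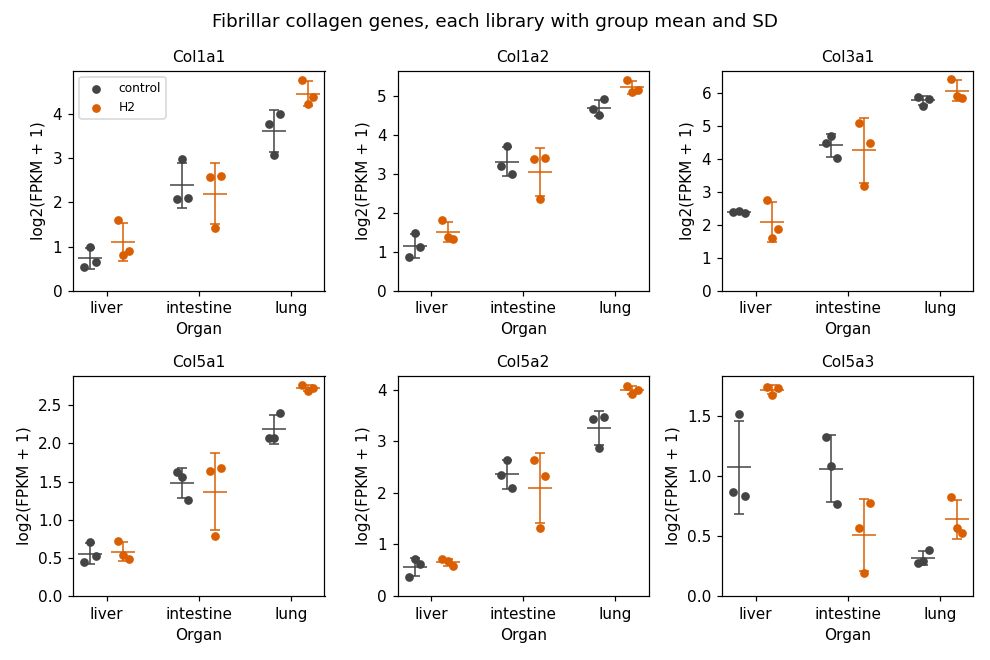
Level of 6 fibrillar collagen genes as log2(FPKM + 1) in control (grey) and H2 (orange) libraries by organ; points are single libraries, bars the mean and SD of n = 3. In the lung the H2 libraries of Col1a1, Col1a2, Col5a1 and Col5a2 lie above all control libraries, while in the intestine the groups overlap.

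Fibrillar and type IV collagens were then set side by side. In the liver the median change was 0.35 over 4 fibrillar genes and -0.83 over 2 type IV genes, a difference of 1.19. In the intestine it was -0.19 over 5 fibrillar genes and -1.17 over 2 type IV genes, a difference of 0.98. In the lung it was 0.53 over 6 fibrillar genes and 0.65 over 6 type IV genes, a difference of -0.12. The medians over all genes tested were -0.02, 0.02 and -0.0036 in the 3 organs. Fibrillar changes thus lay above type IV changes in liver and intestine, where Col4a1 and Col4a2 were the only type IV genes tested. In the lung the medians were level, but 6 type IV genes were tested there. Of these, Col4a1 and Col4a2 had changes of -0.03 and -0.02, below the fibrillar median of 0.53. Col4a3 to Col4a6, at 0.57 to 0.90, raised the type IV median of the lung. The organs were therefore not compared on the same type IV genes. With no filter on low values the differences were 0.0965 in the liver and -0.0623 in the intestine. The 4 type IV genes with means below 1 FPKM there then count, and so do the low fibrillar genes. Adding the multiplexins to the type IV genes gave 0.684 in the liver. No p is given for these medians, because members of 1 library are not replicates.

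A ratio within a library does not depend on its scaling. The ratio of Col4a1 to Col3a1 was 2.09, 1.05 and 1.98 in control intestines and 0.570, 0.962 and 0.960 in H2 intestines, without overlap, and H2 intestine 2 was here like H2 intestine 3. In livers it was 10.4, 6.55 and 9.16 in controls and 4.02, 7.33 and 6.42 with hydrogen, where control liver 2 lay below H2 liver 2. In lungs it was 3.98, 3.22 and 2.30 in controls and 1.76, 2.51 and 3.41 with hydrogen, with broad overlap. Summed over each class, type IV FPKM in livers was 55.3, 35.7 and 49.3 in controls and 30.7, 20.1 and 21.9 with hydrogen, while fibrillar FPKM was 9.88, 13.8 and 10.4 in controls and 17.2, 12.5 and 12.3 with hydrogen. The type IV sums did not overlap and the fibrillar sums did.

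**Figure D4:**
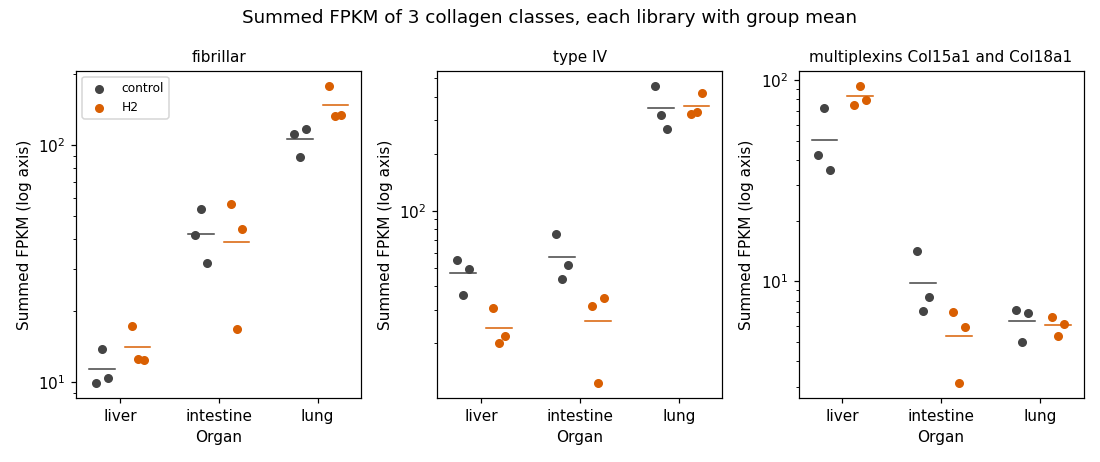
Summed FPKM, on a log axis, of the fibrillar genes, the type IV genes and the multiplexins in control (grey) and H2 (orange) libraries by organ; points are single libraries and lines the means of n = 3. Type IV sums lie lower with hydrogen in liver and intestine without overlap, and multiplexin sums lie higher with hydrogen in the liver.

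The remaining classes differed by organ. Col18a1 measured 38.8, 68.1 and 32.2 FPKM in control livers and 71.2, 89.96 and 75.1 FPKM in H2 livers, with no overlap and control liver 2 next to the H2 range. Its change was 0.82 ± 0.27 in the liver (adjusted p = 0.185) and -0.83 ± 0.34 in the intestine (adjusted p = 0.395), where controls were at 12.3, 5.05 and 6.87 FPKM and H2 mice at 5.63, 2.40 and 3.99 FPKM. The ratio of Col4a1 to Col18a1 in livers was 1.15, 0.419 and 1.18 in controls and 0.325, 0.167 and 0.226 with hydrogen. The 2 basement membrane genes that dominate the liver therefore had values of opposite sign, neither of which passed. Hepatocyte markers summed to 36420 to 63430 FPKM in control and 36760 to 43050 FPKM in H2 livers, and their part was not tested. Col6a1, a chain of the beaded filaments around cells, had 0.66 ± 0.30 in the liver, and Col14a1, a fibril-associated chain, 0.27 ± 0.15, while the transmembrane Col13a1 had -0.30 ± 0.22 (adjusted p = 0.261, 0.326 and 0.436).

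In the intestine the other members with the smallest p were Col13a1 (-0.72 ± 0.27), Col18a1, Col6a2 (-0.80 ± 0.36) and Col6a1 (-0.80 ± 0.36), with adjusted p from 0.380 to 0.412. In the lung Col6a3, the long chain of type VI collagen, measured 0.792, 0.734 and 2.42 FPKM in controls and 4.41, 4.80 and 4.18 FPKM with hydrogen. Control lung 3 was the control closest to the H2 lungs, and the change of 1.31 ± 0.27 was the widest of any tested member in the lung (adjusted p = 0.172). Col16a1, a fibril-associated chain, measured 1.78, 2.23 and 1.83 FPKM in controls and 3.71, 3.67 and 3.42 FPKM with hydrogen, a change of 0.65 ± 0.12 (adjusted p = 0.172). Col8a1, a chain of vessel walls, had 0.67 ± 0.17 and Col6a2 0.36 ± 0.10 (adjusted p = 0.172 for both). Cardiac muscle markers summed to 764.1 to 877.9 FPKM in control and 203.2 to 546.4 FPKM in H2 lungs, and their part was not tested.

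By organ, limma called none of the tested collagens: 0 of 11 liver members (0.0199% of all genes called), 0 of 15 intestine members (0.0084%) and 0 of 23 lung members (0.00745%). At an unadjusted p under 0.05 there were 3 higher and 2 lower members in the liver, where 10.9% and 10.2% of all genes met that rule, and 0 higher and 4 lower in the intestine, against 6.51% and 5.96%. In the lung there were 13 higher and 0 lower, against 10.5% and 12.5%. Groups did not overlap for 2 higher and 1 lower member in the liver, where this held for 12.2% and 13.1% of all genes, and for 0 higher and 4 lower in the intestine (10.6% and 8.75%). In the lung it held for 14 higher and 0 lower of 23, against 14.1% and 15.9% of all genes. Col15a1, left out of the lung by the filter at a mean of 0.944 FPKM, is not in that count. It measured 1.76, 1.10 and 1.09 FPKM in control and 0.487, 0.490 and 0.734 FPKM in H2 lungs, lower without overlap. The median change of the tested members was 0.48 in the lung, where 20 of 23 were above 0, -0.27 in the intestine, where 14 of 15 were below 0, and 0.27 in the liver. Without H2 intestine 2, 10 of 16 were below 0 and the intestine's median was -0.14. Without control liver 2, 5 of 11 collagens of the liver were called, as were 28.2% of all genes, and without control lung 3, 12 of 23 of the lung, as were 24.5% of all genes. An exact permutation test of 3 against 3 libraries cannot give a p under 0.1.

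**Figure D5:**
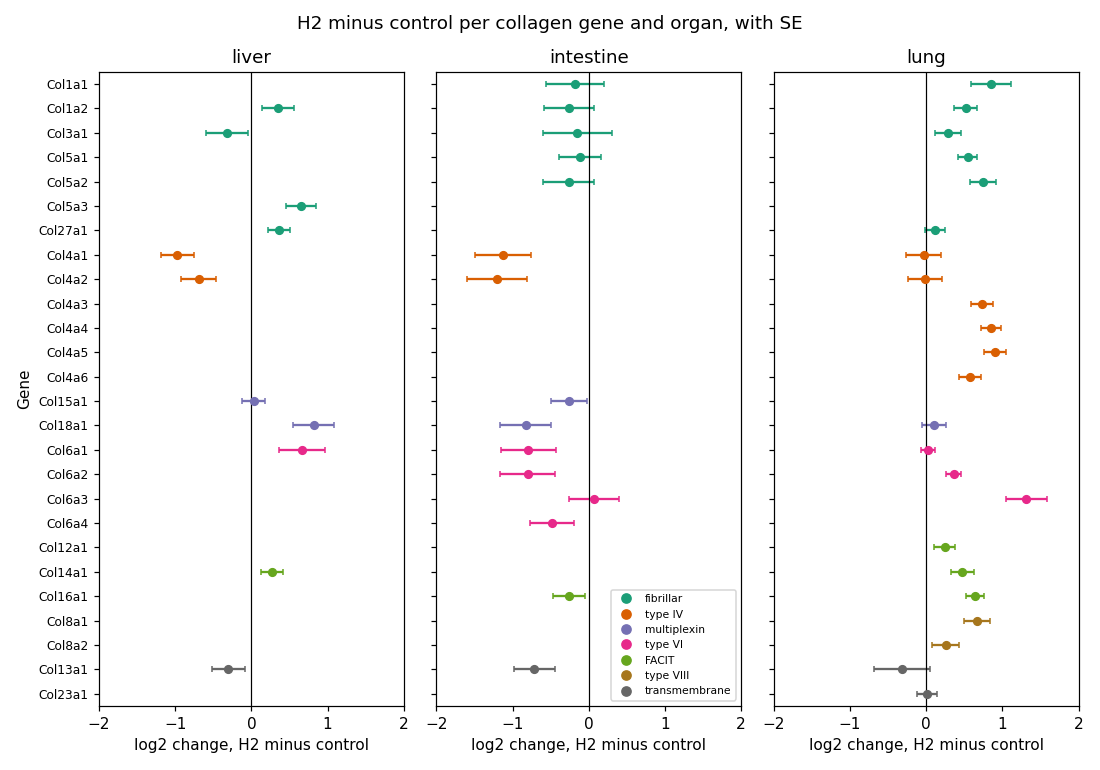
Change of each tested collagen gene in each organ, as the difference in log2(FPKM + 1) of H2 minus control with its SE, n = 3 per group; colours mark the class, and genes under a mean of 1 FPKM in an organ have no point there. Most points of the lung lie to the right of 0, most of the intestine to the left, and Col4a1 and Col4a2 lie between -1.21 and -0.69 in liver and intestine and near 0 in the lung.

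Averaged over the 3 organs in 1 fit of 18 libraries, 6 of 22 tested collagens passed (9.62% of all genes were called), 4 higher and 2 lower, against 4.39% and 5.23% of all genes. Col4a1 fell by 0.71 ± 0.18 (adjusted p = 0.0308) and Col4a2 fell by 0.64 ± 0.19 (adjusted p = 0.0499). Their lung changes were -0.03 and -0.02, so these 2 means carry mainly liver and intestine. Col14a1 rose by 0.29 ± 0.08 (adjusted p = 0.0410). The other 3 calls were Col4a4 at 0.28 ± 0.06 (adjusted p = 0.0208), Col4a5 at 0.33 ± 0.09 (0.0394) and Col4a3 at 0.23 ± 0.07 (0.0451). These 3 are among 6 of the 22 members that reached a mean of 1 FPKM in the lung alone. In liver and intestine Col4a3 and Col4a4 were near 0 and Col4a5 was at most 0.755 FPKM. The 3 thus carry mainly the lung's change divided by the number of organs, and their calls say nothing of the other organs. Col14a1 had values above 0 in the liver and lung fits and 0.348, 0.645 and 0.430 FPKM in control against 0.716, 0.491 and 0.591 FPKM in H2 intestines. No fibrillar gene passed, the lowest adjusted p being 0.169. The count was 1 or 2 without any 1 of 12 libraries and 3 without H2 intestine 1, and 4 to 8 without control liver 2, control intestine 2, control lung 3, H2 intestine 2 or H2 intestine 3. Col4a1 passed in 8 and Col4a2 in 5 of those 18 fits. With the organs first averaged per group and number, which treats equal numbers as 1 mouse, 0 collagens passed and 16 of all genes did.

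The change with hydrogen was then compared between organs. For intestine minus lung, 4 of 22 were called (1.24% of all genes, 0.471% lower), all lower. Of these, Col16a1 was measured in both organs and differed by -0.91 ± 0.21 (adjusted p = 0.0490). That call was kept in 3 of 18 fits that each left out 1 library. The spread in this fit also took in the livers, where Col16a1 was at most 0.402 FPKM. The other calls were Col4a4 at -0.87 ± 0.15, Col4a3 at -0.77 ± 0.16 and Col4a5 at -0.97 ± 0.22. In the intestine Col4a3 and Col4a4 were near 0 FPKM and Col4a5 was at most 0.755 FPKM. For liver minus lung the 1 call was Col4a4 at -0.84 ± 0.15, near 0 in the liver (0.239% of all genes called, 0.0748% lower). For these 3 genes the contrast mostly restates the lung's change with its sign turned and does not show that organs respond differently. Col8a1 had the widest liver minus lung difference of the members, -1.41 ± 0.28, and did not pass (adjusted p = 0.0529). It measured 1.54, 0.294 and 1.02 FPKM in control and 0.127, 0.173 and 0.0730 FPKM in H2 livers, without overlap. Its mean in the liver was under the filter, so it was not tested there alone. For liver minus intestine, 0 of 22 were called in limma (0.217%), with 3 higher and 1 lower at an unadjusted p under 0.05, which 7.36% and 8.12% of all genes met. The difference for Col18a1 there was 1.65 ± 0.43 (adjusted p = 0.101). For Col4a1 the difference was -0.94 ± 0.45 for liver minus lung and -1.09 ± 0.45 for intestine minus lung, and these did not pass (adjusted p = 0.414 and 0.194). With a pseudocount of 0.1 in place of 1, 0 collagens passed in either contrast with the lung. These contrasts share the lung libraries.

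Genes that make, cross-link and break down collagen were counted in the same test of the mean of 3 organs, where 4.39% of all genes were called higher and 5.23% lower. A single call in a list of this size is near that background. None of 13 prolyl and lysyl hydroxylation genes passed, and P4ha1, a prolyl hydroxylase, had 0.27 ± 0.17 (adjusted p = 0.295). Of 13 folding and export genes 1 was lower, the transcription factor Creb3l1 (-0.63 ± 0.15, adjusted p = 0.0245), while the collagen chaperone Serpinh1 had 0.25 ± 0.31 (0.616). None of 5 propeptide processing genes passed. Of 7 cross-linking genes 1 was lower, lysyl oxidase Lox (-0.77 ± 0.18, adjusted p = 0.0234). Lox ranged from 5.86 to 6.77 FPKM in control and from 0.359 to 3.92 FPKM in H2 intestines. Of 13 genes of collagen breakdown 2 were lower, the protease inhibitor Timp1 (-1.54 ± 0.30, adjusted p = 0.0116) and the membrane collagenase Mmp14 (-0.89 ± 0.17, 0.0130). Of 8 collagen receptors 1 was lower, Ddr2 (-0.35 ± 0.10, adjusted p = 0.0410). Of 11 fibril partners 3 were lower, Thbs1, Fn1 and Vcan (-1.22 ± 0.28, -0.57 ± 0.15 and -0.65 ± 0.18; adjusted p = 0.0234, 0.0321 and 0.0417).

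None of 15 basement membrane partners passed in the mean of organs, where Nid1, the protein that links laminin to type IV collagen, had -0.72 ± 0.22 (adjusted p = 0.0511). In the lung alone 8 of 15 were higher at an unadjusted p under 0.05 and 0 lower, against 10.5% and 12.5% of all genes, with a median change of 0.35 against -0.0036 over all genes. Of the lung's 7 cross-linking genes 3 were above and 4 below 0, with a median change of -0.15. By the same rule 1 was higher and 1 lower. Among them Pxdn, the peroxidase that cross-links type IV collagen, had 1.004 ± 0.20 (adjusted p = 0.172). Endothelial markers summed to 1402 to 1602 FPKM in control and 1330 to 1801 FPKM in H2 lungs and to 43.5 to 50.1 FPKM in control and 43.5 to 56.2 FPKM in H2 livers, with none of the 10 at 0. In the intestine they summed to 39.5 to 60.2 FPKM in control and 30.9 to 46.9 FPKM with hydrogen, and fat cell markers to 320.5 to 459.2 FPKM in control and 80.0 to 244.3 FPKM with hydrogen. Taken gene by gene, 9 of 10 endothelial markers were above 0 in the lung, 5 higher and 1 lower at an unadjusted p under 0.05, with a median change of 0.58, beside collagens with 0.48. In the liver 4 of 9 were higher and 0 lower by that rule, against 10.9% and 10.2% of all genes. The groups there did not overlap for 4, all higher, against 12.2% of all genes. In the intestine 7 of 10 were below 0, with a median change of -0.21. By the same rule 0 were higher and 0 lower there, against 6.51% and 5.96% of all genes. In the mean of organs 3 of 10 were called higher (4.39% of all genes), Kdr, Emcn and Tek. The part of vessel and fat cells in the collagen values was not tested.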

How the data were processed

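Stranded poly(A) libraries of 18 organ samples were compared. The deposited FPKM were made by the authors. The submitters' processing notes name build mm10, Cufflinks 2.2.1, TopHat2 2.0.13, SAMtools 0.1.19 and Bowtie2 2.2.3. The annotation and options are not given in the sources used here. FPKM hold no counts, so the depth was only estimated and single values have no interval. Groups follow the sample titles; in the descriptions of H2 replicates 2 and 3 the gas carries another digit, read as a slip. A second column in the file of control lung 2, equal to control lung 3 (0 differences), was the 1 column not used. Of all symbols, 4694 were at 0 throughout. Replicates of a group differed in at least 96% of values.

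The test was limma 3.58.1 (R 4.3.3; empirical Bayes with trend, two-sided, no replicate block) on log2(FPKM + 1), for genes whose mean reached 1 FPKM, each organ alone. The mean of 3 organs, the differences between organs and the control contrasts used all 18 libraries. Benjamini-Hochberg adjustment ran over all genes tested, and an adjusted p under 0.05 was a call. The members and lists were chosen with earlier results of these data known. Named are fibrillar and type IV genes, those called, and per organ the 4 other collagens with the smallest p. Also named are up to 3 genes per pathway list, and Lox, Serpinh1, P4ha1, Mmp14 and Timp1. Members at the edge of the filter or above it in the lung alone are named too. Pxdn, Ager, Nid1, the endothelial genes, Col2a1, Col17a1 and the lung values of Col15a1 were chosen after their values were seen. The profibrotic signalling list is not reported here. On simulated data, the test called 56% of 100 liver genes given a log2 change of 1, with 10041 genes tested. It called 30% of 100 such genes in the intestine (11910 tested) and 69% in the lung (13423). Those 100 genes were drawn only from genes at higher levels, with independent normal noise. The shares therefore do not cover members at low levels.

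Marker lists were fibroblast and stellate, smooth muscle, endothelial, mesothelial, cartilage, fat, cardiac, hepatocyte, enterocyte and alveolar cells. Alternatives were no filter, a filter at 5 FPKM, pseudocounts of 0.1 and 5, quantile and median-of-ratios scaling, no trend, a robust fit, array weights, a replicate block, all 18 libraries in 1 fit, means over organs, and each library left out.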

Additional observations from a re-analysis of the deposited data

Results flagged for a closer look

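In limma's test of the difference in the change with hydrogen between organs, 4 collagen genes were called. For liver minus lung this was Col4a4, at -0.84 on the log2 scale (adjusted p = 0.0355). For intestine minus lung these were Col4a4 at -0.87 (adjusted p = 0.0176), Col4a3 at -0.77 (0.0416), Col16a1 at -0.91 (0.0490) and Col4a5 at -0.97 (0.0490). In the lung all 3 H2 libraries were above all 3 controls for each of them. In the liver and the intestine Col4a3 and Col4a4 were at most 0.129 FPKM and Col4a5 at most 0.755 FPKM in any library. For these 3 genes the test thus mostly restates the lung's change and does not show that organs respond differently. With a pseudocount of 0.1 no collagen was called in either contrast. Leaving out 1 of the 18 libraries, intestine minus lung was called in 15 fits for Col4a4, 6 for Col4a3, 5 for Col4a5 and 3 for Col16a1, and liver minus lung in 6 for Col4a4.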

How the results depend on the processing

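No collagen was called in the intestine under any alternative. With array weights, whose fit did not fully converge in some cases, 5 collagens were called in the liver, 17 in the lung and 14 in the mean of organs, where 25.1%, 53.2% and 42.3% of all genes were called, and with all 18 libraries in 1 fit 5 in the lung (4% of all genes). The mean of organs had 2 with a pseudocount of 0.1, 2 at a mean FPKM of at least 5 and 0 with the organs averaged first, against 6. Liver minus lung had 0 (pseudocount 0.1), 4 (pseudocount 5), 3 (no filter) and 0 (quantile), against 1; intestine minus lung had 0 (pseudocount 0.1), 0 (quantile) and 1 (median of ratios), against 4; liver minus intestine had 1 with no filter. The control contrasts had 26, 32 and 28 with no filter. The cause of each of these moves was not tested, except that no filter and the stricter filter change which genes are tested. The fibrillar minus type IV difference was 0.0965 (liver) and -0.0623 (intestine) with no filter and 0.684 in the liver with multiplexins; a mean of at least 5 left no value there. Leaving out each library, counts ran from 0 to 5 in the liver, 0 to 12 in the lung, 1 to 8 in the mean of organs, 0 to 5 for liver minus lung, 0 to 5 for intestine minus lung and 0 to 4 for liver minus intestine.

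With a replicate block, 5 collagens were called in the mean of organs and 1 for intestine minus lung. Same-numbered libraries had correlated deviations of -0.112 to 0.332 and did not all match best, so the numbers were not taken to pair mice, and the replicate block moved no other count of collagens.

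Small changes turned sign. With array weights the intestine gave 0.17 for Col1a1, 0.094 for Col1a2, 0.37 for Col3a1, 0.14 for Col5a1 and 0.10 for Col5a2, the lung 0.042 for Col4a1 and 0.044 for Col4a2, and the mean of organs 0.15 for Col3a1. With quantile normalization Col5a1 was at 0.0086 in the intestine, Col4a1 at 0.15 and Col4a2 at 0.13 in the lung, Col3a1 at 0.0091 in the mean of organs (0.0073 with a pseudocount of 5), Col4a4 at -0.010 for liver minus intestine and Col27a1 at 0.033 for intestine minus lung. In control organs it gave 0.27 for Col4a5, 0.19 for Col4a3 and 0.33 for Col4a4 (liver against intestine), and 0.011 for Col27a1 and 0.0084 for Col5a1 (intestine against lung). Col1a2 was at 0.029 for liver minus lung with a pseudocount of 0.1. Leaving out libraries, the intestine ran from -0.39 to 0.21 for Col1a1, -0.44 to 0.089 for Col1a2, -0.57 to 0.39 for Col3a1, -0.27 to 0.17 for Col5a1 and -0.53 to 0.12 for Col5a2. The lung ran from -0.22 to 0.20 for Col4a1 and -0.20 to 0.21 for Col4a2, and the mean of organs from -0.20 to 0.12 for Col3a1. Liver minus intestine ran from -0.26 to 0.39 for Col4a1, -0.71 to 0.25 for Col3a1, -0.0023 to 0.057 for Col4a3, -0.034 to 0.62 for Col5a2 and -0.15 to 0.29 for Col5a1. Intestine minus lung ran from -0.85 to 0.10 for Col3a1. Control liver against intestine ran from -0.019 to 0.34 for Col4a1 and -0.040 to 0.00040 for Col4a4. Of the other single values under alternatives, 2368 kept direction and call, 162 lost and 67 gained a call.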
